A study of Mus musculus with 6 samples.

Results

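The clustered protocadherins were examined in an ATAC-seq data set of medullary thymic epithelial cells from wildtype mice and from mice lacking the histone acetyltransferase Kat7. The deposited tables give a count for a fixed window around the start of each gene. Members were the windows on chromosome 18 whose gene symbol is a numbered protocadherin of the alpha, beta or gamma cluster. This rule found 58 windows of 27095. The alpha cluster held 14 windows (Pcdha1 to Pcdha12, Pcdhac1 and Pcdhac2), the beta cluster 22 (Pcdhb1 to Pcdhb22) and the gamma cluster 22 (12 of type A, 7 of type B, and Pcdhgc3, Pcdhgc4 and Pcdhgc5). The rule used no measured value.

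ATAC-seq uses the Tn5 transposase to cut and tag open DNA, so that the count in a window reports how accessible its chromatin was. The cells carried high surface MHC class II, which marks the mature form of these epithelial cells, and came from mice of the C57BL/6 strain. The groups were 3 wildtype and 3 Kat7 knockout libraries, which the design text calls biological replicates. The cell type or promoter that drives the deletion, the deleted part of Kat7, and the age and sex of the mice were not stated in the labels.

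Clustered protocadherins are cadherin-family cell adhesion proteins known best from neurons, where each cell uses its own combination of isoforms and where matching isoforms on neighbouring membranes give self-recognition. In the alpha and gamma clusters each variable exon has its own promoter and is spliced to constant exons shared by the cluster, whereas beta genes are single exons with no constant part. Promoter choice in neurons is tied to CTCF, cohesin and distant enhancers, and unused promoters carry DNA methylation and repressive histone marks. Most C-type genes, at the ends of the alpha and gamma clusters, are largely exempt from this choice and are used evenly between neurons. Medullary thymic epithelial cells are known for transcribing many genes of other tissues, which exposes developing T cells to self-antigens.

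Total counts per library ran from 15482439 to 19832326, and the members held between 0.0397% and 0.0498% of them. The counts are given below as CPM, the counts relative to the library's total after scaling by TMM (trimmed mean of M-values, which equalises the bulk of the windows). A count of 3, taken as the floor, stands for 0.151 to 0.194 CPM of unscaled totals. The Kat7 window itself fell from 267 ± 26.5 CPM to 21.2 ± 14.9 CPM (mean ± SD, n = 3), a log2 fold change of -3.66 (edgeR adjusted p = 0.0143), in the direction of the labels. Whether that window touches the deleted part is not known. That call did not pass without wildtype library 1 (adjusted p = 0.0643) or wildtype library 3 (adjusted p = 0.0565). Among all windows of the lowest accessibility quartile the median log2 ratio to the wildtype mean was -0.24 in knockout library 1, against 0.53 and 0.64 in knockout libraries 2 and 3. In the wildtype, library 1 was as low there (-0.24, against 0.06 and 0.20). In the highest quartile knockout library 1 was at 0.29, against 0.02 and -0.01 in the others of its group. Library 1 of both groups was thus low in closed windows, and counts are given with and without each library. The 8 listed mature epithelial markers were all in the top accessibility quartile, and 0 of them passed the edgeR test (1 fell at an unadjusted p under 0.05; DESeq2 and limma-voom called 0, and 4 fell with loess scaling). p-values measure the spread between these libraries only.

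All 58 windows lie on the + strand, and in build mm10 (the annotation table used for names calls it GRCm38.p6) each spans 5001 bases. In 42 of the 58 the annotated gene start lies 3000 bases into the window, with 2000 bases after it. Windows placed so cover the promoter and the start of the variable exon of alpha and gamma genes, or of the single exon of beta genes. For the other members the annotated start differs from that position, so what their windows cover is less certain. The alpha windows run from 36927285 to 37145969 of chromosome 18 (219 kb), the beta windows from 37261998 to 37520353 (258 kb), and the gamma windows from 37658945 to 37821546 (163 kb). Windows that overlap another share its bases in 1 alpha, 6 beta and 11 gamma members. The Pcdha4 window has only 52 bases of its own, since it lies almost wholly under another gene's window (Gm37013), and held 0, 0 and 3 counts in the wildtype and 1, 0 and 0 in the knockout libraries. Pcdha4 was removed by the filter on low counts, so that 57 of the 58 members were tested.

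The wildtype level differed 133-fold between the lowest and the highest of the 57 tested members, and the highest levels sat at the gamma end. Per kilobase of unshared window, Pcdhgc3 had 20.6 CPM and Pcdhgc4 had 20.5 CPM, which did not differ beyond their spread. Pcdhgc5 followed at 4.33 CPM per kb, then Pcdhgb8 at 3.81, Pcdhac2 at 3.01 and Pcdhgb6 at 2.95. The other tested members lay below the median over all windows, 2.47 CPM per kb. Pcdhgb7 (2.33), Pcdhga12 (2.25) and Pcdhga11 (2.10) came nearest to it, and most were far lower. The median per kb was 0.452 CPM over the alpha variable windows, 0.400 over the beta windows, 0.838 over gamma A and 0.729 over gamma B. The lowest member of each cluster was Pcdha2 at 0.155, Pcdhb9 at 0.197 and Pcdhga4 at 0.405 CPM per kb. Pcdhb1, the first beta gene, was the highest of its cluster at 1.94 CPM per kb. Of the 57 tested members, 13 fell in the lowest quartile of accessibility over all windows, 39 in the next, 3 in the one above and 2 in the highest (Pcdhgc3 and Pcdhgc4).

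**Figure D1:**
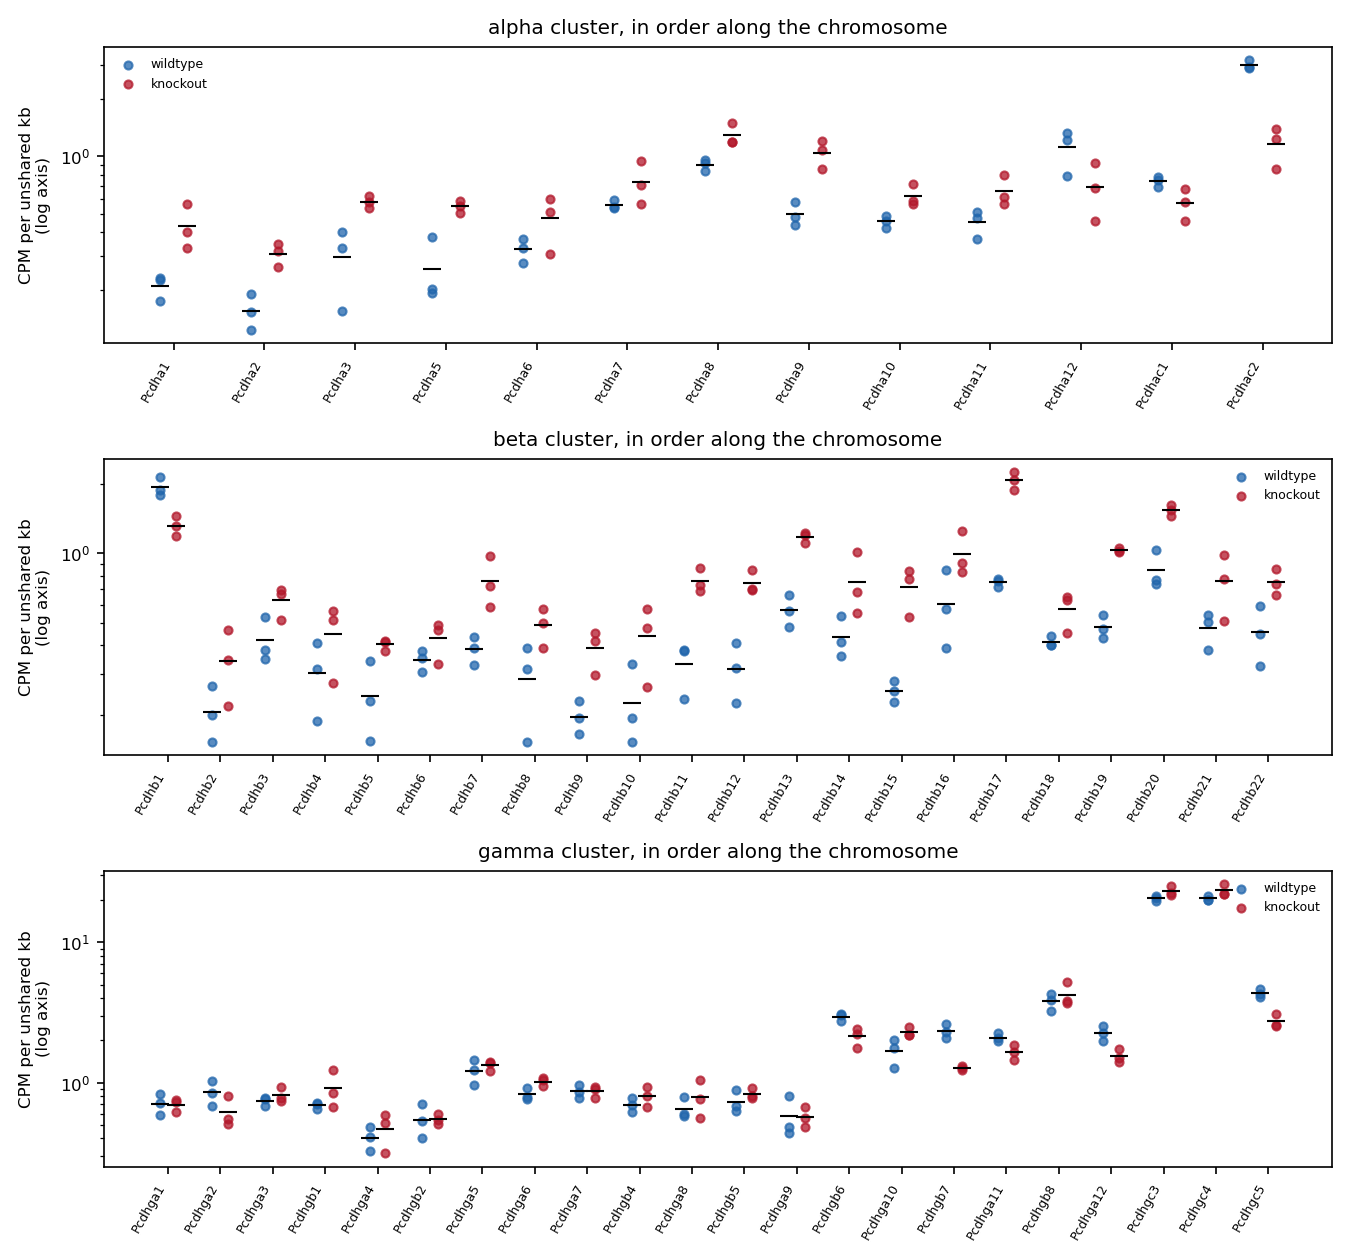
Accessibility of each member in order along the chromosome, as CPM per unshared kb on a log axis, with 1 point for each of the 3 wildtype and 3 knockout libraries and a black bar at the mean; Pcdha4 is not drawn. Pcdhgc3 and Pcdhgc4 stand above all other members in every library, while alpha and beta windows are mostly the lowest.

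In the knockout, 4 alpha variable windows, 10 beta windows and Pcdhga10 gained signal, while Pcdha12, Pcdhac2, Pcdhb1, Pcdhgc5 and 3 windows of the gamma cluster's far part lost it. Of the 57 members tested, 15 rose, 7 fell and 35 did not pass (edgeR's quasi-likelihood test, adjusted p under 0.05). Members were called higher in 26.3% of tests and lower in 12.3%. Over all 24817 windows tested, 6.36% rose and 20.2% fell, 26.6% in all. The median log2 fold change was 0.46 over members and 0.04 over all windows, and the value was above 0 in 45 members and below 0 in 12. In 25 members every knockout library lay above every wildtype library, in 8 every one lay below, and in 25 the groups overlapped. The same separation was found in 13.5% (above) and 24.6% (below) of all windows tested. In a bulk sample, fewer open cells and less accessibility per cell cannot be told apart.

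Scaling and single libraries both touch this split. With loess scaling, which removes trends with accessibility, 27 members rose and 2 fell, against 4324 and 4880 windows of all tested. The higher calls were then 93.1% of the members' calls instead of 68.2%, and 47.0% of those of all windows instead of 23.9%. With library totals alone, 12 members rose and 6 fell, and higher calls made up 35.6% of those of all windows. Without knockout library 1, 25 members rose and 6 fell. Without each other library in turn, 10 or 11 members rose and 5 to 7 fell.

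**Figure D2:**
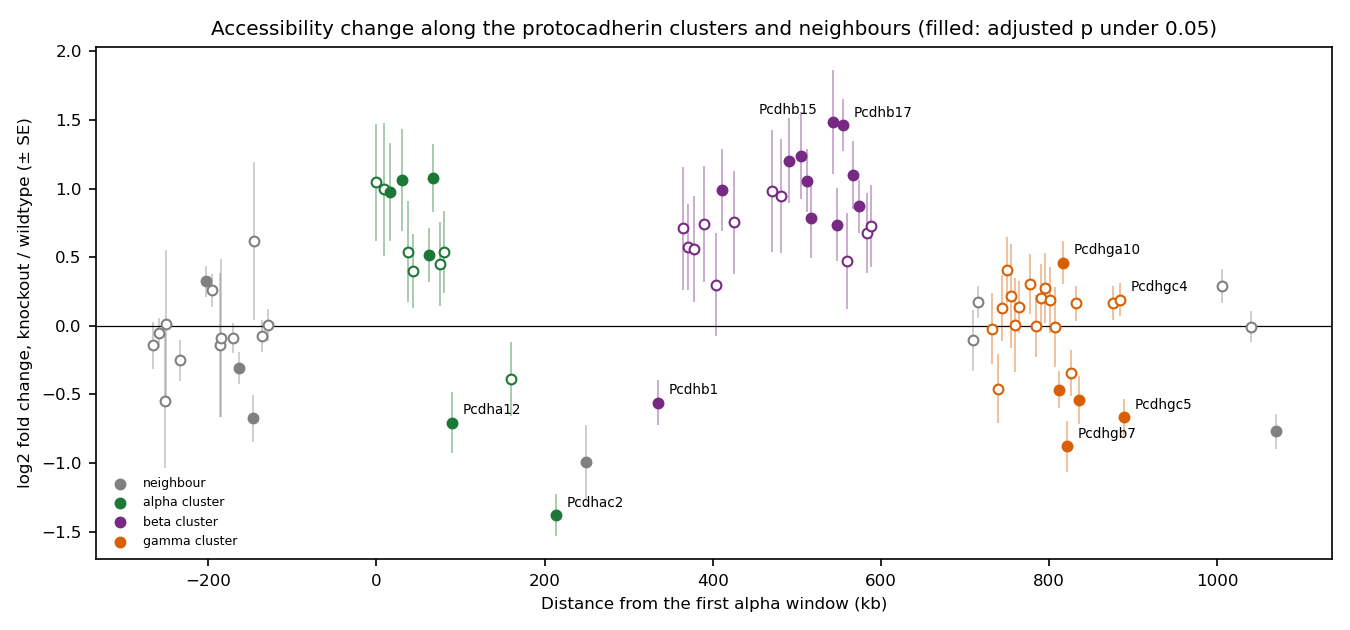
Log2 fold change of knockout against wildtype (± SE) of each tested member and of neighbouring genes, by distance from the start of the first alpha window in kb; filled points passed the edgeR test at an adjusted p under 0.05. The alpha and beta variable windows lie above 0 except Pcdha12 and Pcdhb1, and gamma windows lie on both sides of 0.

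In the alpha cluster 4 of 13 tested windows rose and 2 fell, with a median log2 fold change of 0.54. That is 30.8% higher and 15.4% lower, against 6.36% and 20.2% of all windows tested. The 10 tested windows from Pcdha1 to Pcdha11 all had values above 0, from 0.40 to 1.07, in TMM scaling, and each kept that sign in all alternatives that tested it. This stretch was bounded after values were seen, since Pcdha12 fell. Pcdha3, Pcdha5, Pcdha8 and Pcdha9 passed the test. Their products are variable alpha isoforms. The count of higher alpha windows was 7 without knockout library 1, and 1 without knockout library 2 or wildtype library 2. It was 2 without wildtype library 1, wildtype library 3 or knockout library 3. Pcdha12 and Pcdhac2 were the lower windows.

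Pcdha9 had 2.41, 2.88 and 2.19 CPM in the wildtype libraries and 4.30, 5.43 and 5.99 CPM in the knockout libraries. Every knockout library stood above every wildtype library. The mean rose from 2.49 ± 0.352 to 5.24 ± 0.864 CPM, which is 1.07 on the log2 scale (SE 0.25, adjusted p = 1.06e-04), and the call passed in all 16 alternatives.

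Pcdha3 had 0.769, 1.66 and 2.01 CPM in the wildtype and 3.09, 2.69 and 2.87 CPM in the knockout libraries, without overlap. Its log2 fold change was 0.98 (SE 0.36, adjusted p = 0.0257). The low wildtype library 1 carried much of that change, since the adjusted p was 0.291 without it. Alternatives ran from 0.00419 to 0.291, and leaving out wildtype library 2, knockout library 2 or knockout library 3 also ended the call. So did library totals alone (adjusted p = 0.0798), libraries 2 and 3 of each group (0.101) and windows sharing no base (0.0541).

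Pcdha5 had 1.90, 0.959 and 1.00 CPM in the wildtype and 2.52, 2.93 and 2.75 CPM in the knockout libraries. The groups did not overlap, and wildtype library 1 was the highest of its group. The log2 fold change was 1.07 (SE 0.37, adjusted p = 0.0186). The call was lost without wildtype library 2 (adjusted p = 0.178), wildtype library 3 (0.175) or knockout library 2 (0.0976), and alternatives ran down to 3.10e-04.

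Pcdha8 had 4.77, 4.60 and 4.19 CPM in the wildtype and 5.96, 5.97 and 7.52 CPM in the knockout libraries. Its groups did not overlap, but the change was small, with a value of 0.52 on the log2 scale (SE 0.20, adjusted p = 0.0357). The adjusted p ran from 2.53e-04 to 0.241 over the alternatives, and the call was lost without each library except knockout library 1. Library totals alone (adjusted p = 0.107) and limma-voom (adjusted p = 0.0533) also ended it. So did leaving out the low-count filter (0.0802) and testing only windows sharing no base (0.0577).

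Among alpha windows that did not pass, Pcdha1 had a log2 fold change of 1.04 (adjusted p = 0.0536), with knockout libraries all above wildtype. Pcdha2, the lowest alpha window, had 0.615, 0.767 and 0.945 CPM in the wildtype and 1.32, 1.73 and 1.59 CPM in the knockout libraries, a value of 0.99 (SE 0.49, adjusted p = 0.121). Its groups too did not overlap.

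The summed level of all alpha variable windows, Pcdha12 included, was 26.2, 24.8 and 27.6 CPM in the wildtype and 32.4, 38.9 and 39.6 CPM in the knockout libraries. The sums did not overlap, and the ratio of the means was 1.41. Over the whole alpha cluster, with Pcdhac1 and Pcdhac2, the sums were 46.0, 42.8 and 46.0 CPM against 39.0, 48.7 and 49.2 CPM. These overlapped, with a ratio of 1.01.

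Pcdha12, the last variable alpha window, went the other way. It had 6.10, 3.96 and 6.68 CPM in the wildtype and 2.29, 4.60 and 3.42 CPM in the knockout libraries. The groups overlapped, since wildtype library 2 lay below knockout library 2. The log2 fold change was -0.71 (SE 0.22, adjusted p = 0.00748). The call was lost without wildtype library 1 (adjusted p = 0.0672), wildtype library 3 (0.180) or knockout library 1 (0.0865) and with loess scaling (0.172), in a range that began at 0.00313. DESeq2's test (adjusted p = 0.0742), library totals alone (0.0635), a mean count of at least 50 (0.0523) and libraries 2 and 3 of each group (0.178) also ended it. Pcdha12 is thereby the less stable of the lower alpha calls.

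Of the C-type alpha windows, Pcdhac2, which encodes the isoform that closes the cluster, had the largest fall of the 57 tested members. It had 15.9, 14.6 and 14.7 CPM in the wildtype and 4.30, 6.93 and 6.18 CPM in the knockout libraries. All knockout libraries were below the wildtype range, and the wildtype libraries were close together. The log2 fold change was -1.38 (SE 0.15, adjusted p = 3.40e-18), and the call passed in all 16 alternatives, with values from -1.53 to -0.91. Pcdhac1 had 3.89, 3.45 and 3.78 CPM in the wildtype and 2.29, 2.87 and 3.36 CPM in the knockout libraries. These too did not overlap, but the log2 fold change of -0.39 did not pass (95% interval -0.92 to 0.14, adjusted p = 0.308).

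The beta cluster had the most higher calls. Here 10 of 22 windows rose and 1 fell, with a median log2 fold change of 0.77 and 21 of 22 values above 0. That is 45.5% higher and 4.55% lower, against 6.36% and 20.2% of all windows tested. The beta windows all lie in the lowest accessibility quartile and the next. Of all windows in these quartiles, 2.26% and 4.58% rose, and 1.35% and 32.5% fell. The 21 windows from Pcdhb2 to Pcdhb22 had values from 0.30 to 1.49, and each kept its sign in all alternatives that tested it. Within these 21, 0 fell in edgeR (also 0 at an unadjusted p under 0.05 and 0 in DESeq2 and limma-voom). In 13 of them every knockout library was above every wildtype library. Pcdhb1 was set aside from these 21 windows after its value was seen. Over all windows tested, the knockout libraries were all above in 13.5%, and in 8.33% and 8.11% within the lowest quartile and the next. The summed level of all 22 beta windows was 46.5, 53.1 and 52.9 CPM in the wildtype and 74.4, 85.7 and 92.9 CPM in the knockout libraries, a ratio of the means of 1.66. The sums did not overlap, and library 1 was the lowest of each group. The number of higher windows was 18 without knockout library 1 and 8 or 9 without each of the other libraries.

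**Figure D3:**
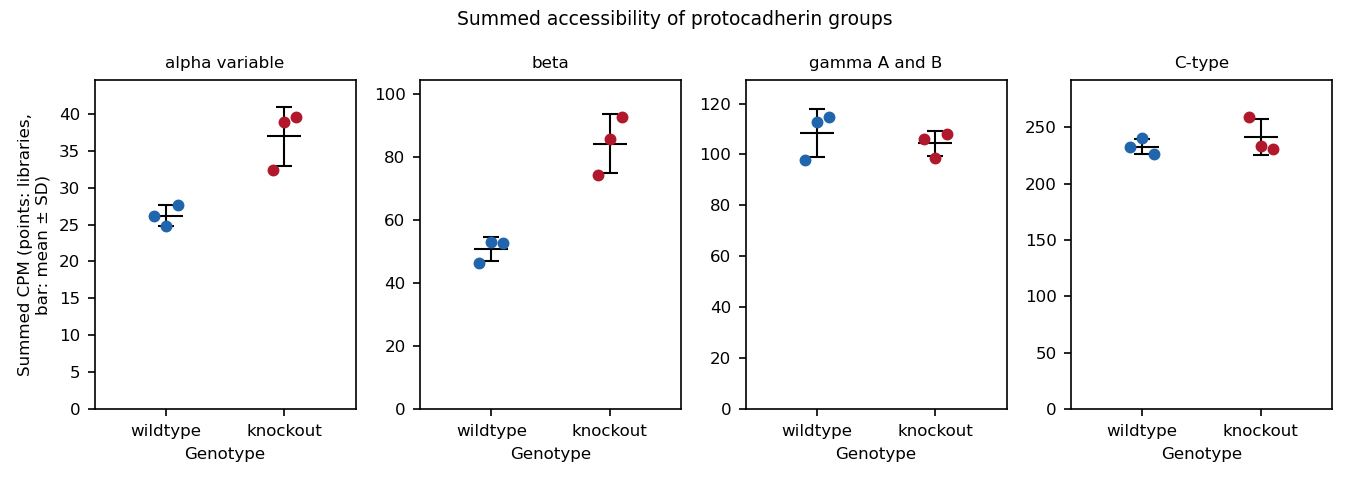
Summed CPM of the members of each type in each library (points), with the mean (black dash) ± SD of 3 libraries; axes start at 0 and differ between panels. The alpha variable and beta sums do not overlap between wildtype and knockout, whereas the gamma A and B sums do.

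The higher beta windows lay from Pcdhb7 to Pcdhb20 along the cluster. Pcdhb17 had the smallest p of them. It had 3.18, 3.45 and 3.37 CPM in the wildtype and 9.97, 8.36 and 9.23 CPM in the knockout libraries. The wildtype libraries were nearly alike and the knockout libraries were far above them. This is a 2.76-fold rise (log2 fold change 1.46, SE 0.19, adjusted p = 4.27e-13). Pcdhb15 had 1.08, 0.959 and 1.18 CPM in the wildtype and 2.23, 3.28 and 3.55 CPM in the knockout libraries, which gave the highest log2 fold change among the members tested (1.49, SE 0.38, adjusted p = 5.26e-04). The windows of Pcdhb15 and Pcdhb16 overlap, and so do those of Pcdhb17 and Pcdhb18, so that the first have 4222 and the latter 4444 bases of their own.

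Pcdhb12 had 1.13, 2.05 and 1.59 CPM in the wildtype and 3.50, 3.46 and 4.22 CPM in the knockout libraries (log2 fold change 1.24, SE 0.32, adjusted p = 5.81e-04). Its neighbour Pcdhb11 had 1.18, 1.92 and 1.89 CPM against 3.44, 3.64 and 4.34 CPM (1.20, SE 0.31, adjusted p = 6.65e-04). In both windows wildtype library 1 was the lowest and the groups did not overlap. Pcdhb19 had 2.15, 2.36 and 2.72 CPM in the wildtype and 5.27, 5.08 and 5.14 CPM in the knockout libraries (1.10, SE 0.25, adjusted p = 8.77e-05). Pcdhb13 had 2.41, 2.81 and 3.31 CPM against 5.56, 6.15 and 5.99 CPM (1.06, SE 0.23, adjusted p = 3.36e-05). The knockout libraries of both windows were close together and above all wildtype libraries.

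Pcdhb7 had 1.64, 2.17 and 1.95 CPM in the wildtype and 2.92, 4.90 and 3.61 CPM in the knockout libraries (0.99, SE 0.30, adjusted p = 0.00478). Knockout library 2 was the highest, and without it the adjusted p was 0.146, the top of a range that began at 5.15e-04. Pcdhb20 had 3.69, 5.18 and 3.84 CPM in the wildtype and 8.14, 7.70 and 7.28 CPM in the knockout libraries (0.87, SE 0.19, adjusted p = 4.27e-05). The groups of both windows did not overlap. Pcdhb11, Pcdhb12, Pcdhb13, Pcdhb15, Pcdhb17, Pcdhb19 and Pcdhb20 passed in each alternative that tested them.

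The remaining higher beta windows, named after their values were seen, were Pcdhb14 (log2 fold change 0.78, adjusted p = 0.0294) and Pcdhb16 (0.74, adjusted p = 0.0251). In Pcdhb16 the groups overlapped. Pcdhb14 lost its call without each library except knockout library 1, with adjusted p from 0.00343 to 0.317 over the alternatives. Pcdhb16 lost it without wildtype library 1 (adjusted p = 0.285), wildtype library 3 or knockout library 3, in a range from 0.00541. Library totals alone ended both calls (adjusted p = 0.0891 and 0.101), and so did leaving out the low-count filter (0.0548 and 0.0523). Pcdhb14 also lost it over windows sharing no base (0.0539), and Pcdhb16 with libraries 2 and 3 of each group (0.0918). Pcdhb9, the lowest beta window, had 0.974, 1.15 and 0.827 CPM in the wildtype and 1.49, 2.09 and 2.26 CPM in the knockout libraries. Its groups did not overlap, and its log2 fold change of 0.98 did not pass (SE 0.44, adjusted p = 0.0896).

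Pcdhb1 was the only lower beta window in TMM scaling. It lies at the start of the cluster and had 10.7, 9.39 and 8.98 CPM in the wildtype and 5.96, 7.23 and 6.54 CPM in the knockout libraries. The groups did not overlap, and the log2 fold change was -0.56 (SE 0.16, adjusted p = 0.00324). It did not pass with loess scaling (-0.10, adjusted p = 0.628) or with libraries 2 and 3 of each group alone (adjusted p = 0.0572), in a range that began at 0.00330.

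The gamma cluster showed no common direction in TMM scaling. Of 22 windows 1 rose, 4 fell and 17 did not pass, and the median log2 fold change was 0.13, with 14 values above 0 and 8 below. That is 4.55% higher and 18.2% lower, near the 6.36% and 20.2% of all windows tested. In 13 of the 22 the groups overlapped, as they did in 17402 of all 27095 windows. With loess scaling 7 rose and 1 fell. The stretches below were bounded after values were seen. In the 13 windows from Pcdhga1 to Pcdhga9, 0 passed in edgeR (also 0 at an unadjusted p under 0.05, and 0 in DESeq2 and limma-voom, but 5 higher with loess scaling). Their log2 fold changes ran from -0.46 to 0.41 around a median of 0.14, and 12 of the 13 overlapped between groups. Pcdhga4, the least accessible of them, had 1.43, 1.79 and 2.13 CPM in the wildtype and 1.38, 2.27 and 2.57 CPM in the knockout libraries (0.22, SE 0.38, adjusted p = 0.721).

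The 6 windows from Pcdhgb6 to Pcdhga12 held 1 higher and 3 lower calls, with a median log2 fold change of -0.40. Of all windows with a mean log2 CPM of 2 to 3 and of 3 to 4, where these windows lie, 47.2% and 59.7% fell, with medians of -0.44 and -0.53, so that 3 lower of 6 is near that background. Pcdhgb7 fell furthest. It had 9.43, 7.41 and 8.21 CPM in the wildtype and 4.70, 4.54 and 4.40 CPM in the knockout libraries. The knockout libraries were nearly alike and all below the wildtype range (log2 fold change -0.88, SE 0.18, adjusted p = 1.37e-05), and the call passed in each alternative that tested it. Pcdhga12 had 7.53, 9.52 and 8.51 CPM in the wildtype and 5.67, 6.57 and 5.26 CPM in the knockout libraries (-0.54, SE 0.17, adjusted p = 0.00853). Pcdhgb6 had 13.7, 15.4 and 15.2 CPM against 12.1, 8.78 and 11.1 CPM (-0.46, SE 0.14, adjusted p = 0.00380). Both separated the groups, and both were near 0 with loess scaling, at -0.09 (adjusted p = 0.688) and -0.01 (adjusted p = 0.959), the top of their ranges, which began at 0.00480 and 0.00154. Pcdhga12 also lost its call without wildtype library 2 or 3, and Pcdhgb6 without knockout library 2. DESeq2's test passed neither Pcdhga12 (adjusted p = 0.0598) nor Pcdhgb6 (adjusted p = 0.0689).

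Pcdhga10, between these, went up. It had 5.84, 9.20 and 8.09 CPM in the wildtype and 11.5, 10.0 and 10.1 CPM in the knockout libraries, without overlap (log2 fold change 0.46, SE 0.16, adjusted p = 0.0136). Wildtype library 1 was the lowest, and without it the adjusted p was 0.241. The call was also lost without wildtype library 3 (0.0779) or knockout library 1 (0.0816), in a range from 2.28e-04 to 0.316. Library totals alone (0.0893) and libraries 2 and 3 of each group (0.316) ended it too. The summed level of all gamma A and B windows was 97.8, 112.7 and 114.9 CPM in the wildtype and 106.1, 98.8 and 108.2 CPM in the knockout libraries, and the groups overlapped.

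Of the 3 C-type gamma windows, 1 passed the test. Pcdhgc3 had 103, 108 and 98.8 CPM in the wildtype and 125, 113 and 109 CPM in the knockout libraries. Pcdhgc4 had 89.2, 96.1 and 90.1 CPM against 116, 99.2 and 98.5 CPM. In both, knockout libraries lay above all wildtype libraries, but the log2 fold changes of 0.17 (95% interval -0.07 to 0.40, adjusted p = 0.335) and 0.19 (95% interval -0.05 to 0.42, adjusted p = 0.256) did not pass. Both passed with library totals alone. Pcdhgc5 had 20.8, 18.3 and 19.0 CPM in the wildtype and 11.4, 11.6 and 13.7 CPM in the knockout libraries. It fell by 0.66 on the log2 scale (SE 0.13, adjusted p = 2.30e-06) with no overlap, and lost the call only with loess scaling (-0.24, adjusted p = 0.103) among 15 alternatives, which otherwise ran from 1.64e-07.

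Ratios of counts within a library do not depend on a scaling factor per library, though a scaling by accessibility changes them: with loess the log2 fold changes of Pcdhgc5 and Pcdhgc3 were -0.24 and 0.07, against -0.66 and 0.17. The ratios are given as a description, since the windows were picked with their changes known. Pcdhac2 counts were 15.5%, 13.5% and 14.8% of Pcdhgc3 counts in the wildtype and 3.43%, 6.14% and 5.66% in the knockout libraries. Pcdhgc5 was 20.2%, 17.0% and 19.3% of Pcdhgc3 in the wildtype and 9.10%, 10.3% and 12.6% in the knockout libraries. These ratios did not overlap between groups, whereas Pcdhgc4 stayed between 86.7% and 92.9% of Pcdhgc3 in all 6 libraries. With 3 against 3 libraries an exact permutation test cannot go below p = 0.1.

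**Figure D4:**
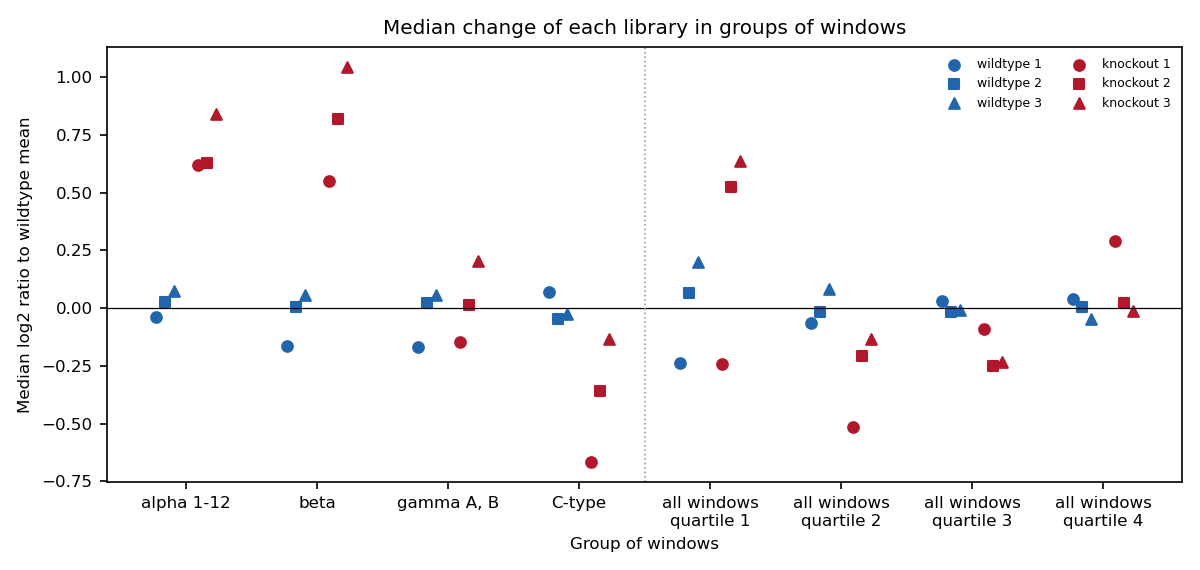
Median log2 ratio of each library to the wildtype mean, for groups of members and, right of the dotted line, for the 4 accessibility quartiles of all windows. Each knockout library is above each wildtype library for alpha variable and beta windows, while knockout library 1 is at or below the wildtype range in the 2 quartiles of lowest accessibility.

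Taken library by library, the median log2 ratio of the alpha variable windows to the wildtype mean was 0.62, 0.63 and 0.84 in knockout libraries 1, 2 and 3, and that of the beta windows was 0.55, 0.82 and 1.05. Wildtype libraries lay between -0.04 and 0.07 for alpha and between -0.16 and 0.06 for beta. Knockout library 1 was thus the lowest of its group for both but still above every wildtype library. Over all windows of the quartile next to the lowest, which holds most members, the medians of the knockout libraries were -0.51, -0.21 and -0.13. The gamma A and B windows had -0.15, 0.01 and 0.20, within or near the wildtype range of -0.17 to 0.06. The C-type windows had medians of -0.67, -0.36 and -0.13, all below the wildtype range of -0.05 to 0.07. These medians hide a split and do not stand for a common fall. Pcdhgc3 and Pcdhgc4 lay above their wildtype ranges in every knockout library, and Pcdhac1, Pcdhac2 and Pcdhgc5 lay below theirs. The summed C-type level overlapped between groups (226.3 to 240.2 CPM in the wildtype, 230.7 to 259.6 CPM in the knockout libraries).

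Changes over all windows varied with accessibility, so members were set beside windows of like level. Among windows with a mean log2 CPM of 1 to 2, 3.35% rose and 14% fell, with a median log2 fold change of -0.10. Of the 27 members there 8 rose and 0 fell in edgeR; the 18 alpha and beta members had a median of 0.70 and the 9 gamma members 0.13. Among windows with a mean log2 CPM of 2 to 3, 5.48% rose and 47.2% fell, with a median of -0.44. Of the 11 members there 4 rose and 3 fell, and the 5 alpha and beta members had a median of 0.87 against -0.17 for the 6 gamma members. In both ranges the alpha and beta median lay above that of all windows. Between 3 and 4, where 6.79% of windows rose and 59.7% fell, 4 of 6 members fell and 1 rose, with a median of -0.51 against -0.53 over all windows. The 2 alpha and beta members there (Pcdhac2 and Pcdhb1) had a median of -0.97, below that of all windows. In the lowest of these ranges, 0 to 1, 2.15% of 4228 windows rose and 1.49% fell, and 2 of 11 members rose. The median there was 0.36 over all windows and 0.96 over 10 alpha and beta members. Across the 57 members the fold change fell with the level (Spearman's rho -0.59, Pearson's r -0.45), given as a description, since all members share the libraries and the level enters both measures.

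**Figure D5:**
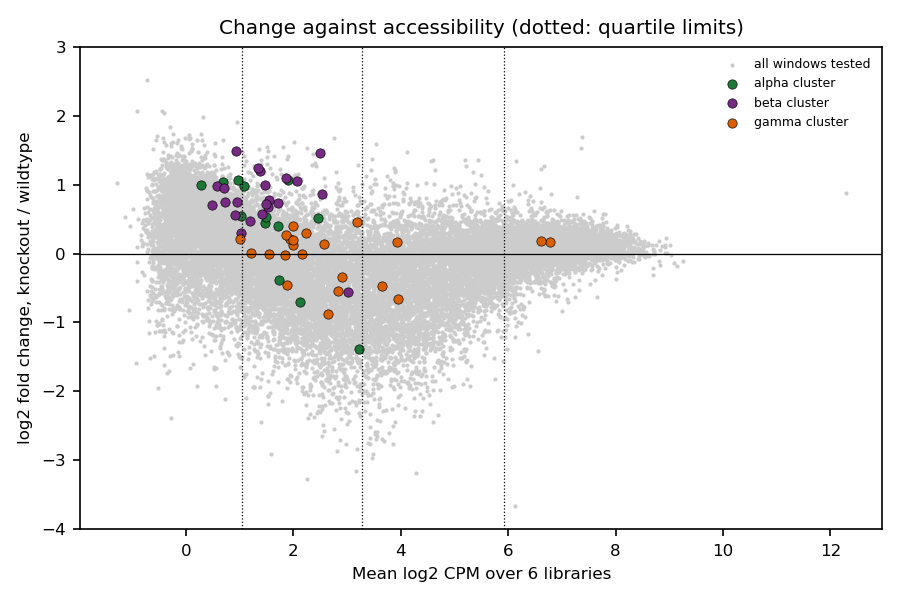
Log2 fold change against mean log2 CPM for all windows tested (grey) and for members by cluster, with dotted lines at the quartile limits. Alpha and beta members between 1 and 3 log2 CPM lie above 0 except Pcdha12 and Pcdhac1, and Pcdhac2 has the lowest value of the members.

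The genes around the clusters gave no common direction. Within 300 kb of a member lay 26 other windows, of which 21 were tested, 1 rose and 4 fell, with a median log2 fold change of -0.09. These are 4.76% and 19.0% of those tested, near the 6.36% and 20.2% of all windows. Slc25a2 (-0.11, adjusted p = 0.768) and Taf7 (0.17, adjusted p = 0.280), which encode a mitochondrial carrier and a TFIID subunit, lie between the beta and gamma clusters and did not pass. Gm10544, the window 30.6 kb from that of Pcdhac2, fell by 0.99 (adjusted p = 0.00126), from 4.52 ± 0.717 to 2.27 ± 0.578 CPM. Arap3, which encodes a GTPase-activating protein, fell by 0.77 (adjusted p = 1.36e-08), and Hars2, a mitochondrial histidyl-tRNA synthetase gene, fell by 0.67 (adjusted p = 5.22e-04); the Hars2 window shares bases with another, and the call was lost with loess scaling (adjusted p = 0.241). Dnd1, a germ cell RNA-binding protein gene, fell by 0.31 (adjusted p = 0.0303). Cd14, which encodes a lipopolysaccharide co-receptor, rose by 0.32 (adjusted p = 0.0182). The Cd14 call was lost without wildtype library 1 or knockout library 3, and the Dnd1 call without either of these or knockout library 2. DESeq2's test (adjusted p = 0.113) and DESeq2 size factors in edgeR (adjusted p = 0.14) also ended the Dnd1 call. Diaph1, Vaultrc5, Zmat2 and Fchsd1 did not pass (log2 fold changes of 0.29, 0.01, -0.08 and -0.01). The windows of Gm37013, Rell2, Hdac3 and 2 without a symbol were removed by the filter on low counts. Also short of the threshold were Eif4ebp3, Sra1, Slc35a4, Apbb3, E230025N22Rik, Tmco6, Ik, Ndufa2, Wdr55 and Hars, whose values ran from -0.55 (Slc35a4) to 0.62 (Hars). Diaph1 (adjusted p = 0.0714) and Tmco6 (adjusted p = 0.102) stayed short of it in only 6 and 9 of 16 alternatives. In the rest, which include loess scaling and DESeq2's test, both passed as higher.

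Of 31 genes listed as regulators of the clusters (CTCF, cohesin, DNA methylation and heterochromatin factors), 28 were tested, 1 rose and 1 fell, with a median of 0.16. Each call is 3.57% of those tested, against 6.36% higher and 20.2% lower over all windows. Of the 28, 20 lie in the highest accessibility quartile, where 9.32% of all windows rose and 3.72% fell, so the lower share is near that background. With loess scaling 10 regulators rose and 1 fell, beside 4324 higher and 4880 lower of all 24817 windows. Stag1, a cohesin subunit gene, rose from 206 to 259 CPM (0.33, adjusted p = 0.0396). Ehmt1, a histone H3 lysine methyltransferase gene, fell from 8.67 to 6.15 CPM (-0.50, adjusted p = 0.0162). The Stag1 call was lost without wildtype library 1 or 3 or knockout library 2. The Ehmt1 call was lost with loess scaling (log2 fold change -0.04, adjusted p = 0.848), library totals (0.0567) and DESeq2 (0.0878), and without wildtype library 3 or knockout library 1 or 2, in a range that began at 0.0111. The windows of Ctcf (0.14), Rad21 (0.20), Smchd1 (0.22), Dnmt3b (0.08) and Setdb1 (0.08) did not pass, although Ctcf did with loess scaling (0.57, adjusted p = 0.0149).

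The protocadherins outside the clusters, which are separate genes outside these arrays, gave 0 higher and 6 lower calls among 12 tested in edgeR. At an unadjusted p under 0.05, 1 rose and 8 fell, while DESeq2 called 0 and 5 and limma-voom 0 and 6. Their median log2 fold change was -0.51, and 7 of the 12 lie in the upper of the middle accessibility quartiles, in which 43.2% of all windows fell. Pcdh9 fell from 27.5 to 4.31 CPM (-2.68, adjusted p = 1.36e-73), Pcdh19 from 37.2 to 15.9 CPM (-1.23, adjusted p = 9.13e-24) and Pcdh12 from 54.1 to 26.6 CPM (-1.03, adjusted p = 5.53e-18). Pcdh7 fell by 0.73 (adjusted p = 5.82e-09).

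Markers of other cell types lie mostly in the middle quartiles of accessibility. Of all windows there, 32.5% (the lower) and 43.2% (the upper) fell, so lower calls of these markers stand beside a high background. In the same quartiles 4.58% and 9.28% of all windows rose. Of 7 neuron markers 4 fell and 0 rose (edgeR; also 0 higher at an unadjusted p under 0.05, in DESeq2 and in limma-voom), with summed levels of 412.9 to 446.1 CPM in the wildtype and 350.8 to 423.8 CPM in the knockout libraries. Of 6 tested thymocyte markers 2 rose (Cd4 and Cd8a), from 27.9 to 31.8 CPM up to 34.7 to 37.5 CPM in sum. B cell markers fell in 3 of 5 (57.2 to 58.3 CPM, then 36.4 to 38.1) and myeloid markers in 4 of 6 (52.6 to 58.4 CPM, then 39.7 to 42.1). Of 5 mesenchymal markers 1 rose and 2 fell (109.4 to 116.0 CPM, then 85.5 to 89.4), and of 4 endothelial markers 1 rose and 2 fell (39.8 to 43.3 CPM, then 31.8 to 34.7). No marker window was at 0 in all libraries. The sums of mature epithelial markers overlapped (1740 to 1815 CPM, then 1551 to 1912). The part of these cell types in the protocadherin values was not tested.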

How the data were processed

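The deposited values are whole-number counts per gene window and library. The authors counted paired-end reads of 75 bases with featureCounts on build mm10, per the submitters' processing notes and the labels. For the aligner, duplicate removal, Tn5 shift, counting of fragments or ends, and reads that map to several places, the methods were not given in the sources used here. Clustered protocadherins are close relatives, so multi-mapping reads could lower or share counts between members, and values of overlapping windows are uncertain. Symbols came from the per-library tables, whose counts equalled those of the series table in 6 of 6 libraries.

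Tests used edgeR 4.0.16 (R 4.3.3, limma 3.58.1) with filterByExpr (minimum count 10), TMM factors (0.884 to 1.06), a robust quasi-likelihood fit (biological coefficient of variation 10.9%) and Benjamini-Hochberg adjustment over 24817 windows at 0.05. DESeq2 1.42.0 served as an alternative. SE is the absolute log2 fold change over the square root of F, and 95% intervals are normal. A simulation on 24609 windows recovered 80% of 200 changes of 2-fold. Levels per kb divide by bases in no other window. Quartiles and level ranges use the mean log2 CPM (prior count 2) over all 6 libraries; the ranges of 1 log2 unit were chosen after values were seen.

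Members and gene lists were chosen with earlier results of these data known. Named were, for each cluster, up to 8 called members per direction, all C-type genes, the highest and lowest wildtype level, all neighbours with a gene symbol within 300 kb that were tested, the 4 largest calls per direction among regulators and other protocadherins, and Ctcf, Rad21, Smchd1, Dnmt3b and Setdb1. The alternatives, 16 in all, covered scaling, filters, tests, window overlap, a replicate block and left-out libraries. No sequence is printed.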

Additional observations from a re-analysis of the deposited data

How the results depend on the processing

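With loess scaling 27 members rose and 2 fell (alpha 7 and 1, beta 13 and 0, gamma 7 and 1), with 4324 higher windows in all. With library totals alone 2 alpha windows rose and 1 fell, 2 gamma windows rose, and 2937 of all windows rose. Where a mean count of at least 50 was asked, which tests fewer members, 2 alpha, 6 beta and 3 gamma windows rose, 1 alpha window fell, the alpha median was 0.043, and 3937 of all windows rose. With DESeq2's test 4 members fell (alpha 1, gamma 2). Over windows sharing no base, which leaves fewer members, 8 rose and 4 fell (alpha 2, beta 6 and gamma 0 higher, gamma 1 lower). With libraries 2 and 3 of each group alone 1 alpha and 0 beta windows fell, 0 gamma windows rose, the gamma median was -0.0266, and 2664 of all windows rose. Beside the smaller set of tested windows or libraries, the cause of these moves was not tested.

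Leaving out 1 library at a time gave 10 to 25 higher and 5 to 7 lower members. The alpha cluster had 1 to 7 higher and 1 to 2 lower windows, beta 8 to 18 higher and 1 lower, and gamma 0 to 1 higher and 3 to 4 lower. Over all windows 689 to 3177 rose and 4227 to 5709 fell. Medians stayed at 0.49 to 0.57 (alpha), 0.66 to 0.92 (beta) and 0.02 to 0.15 (gamma). No called value reversed in these alternatives. Over the 57 tested members, 764 recomputed values kept their side of the threshold, 57 lost a call and 49 gained one. A call was kept in each alternative that tested it by 10 of the 22 called members.

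Libraries of the same number correlated at 0.374, 0.0284 and 0.389 in their deviations. Each wildtype library correlated best with the knockout library of its number, the highest other values being -0.285, 0.00314 and 0.308. From the knockout side not every library correlated best with its own number. No label pairs the libraries, so the numbers were not taken as pairs, and pairing is not excluded. With a replicate block 22 members rose and 7 fell, and 2824 of all windows rose, against 15, 7 and 1578 without it.

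Most members had few counts, which limits the precision of each. The simulated recovery given above is over windows of all levels together and can differ for members with few counts. The simulation used the same biological coefficient of variation for all windows. It had no trend with accessibility between libraries, whereas these data do. Recovery of changes under 2-fold was not tested.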
